A study of Drosophila melanogaster with 18 samples.

Results

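CG33293, CG4686, CG31697, CG3982, CG43675 and CG32161 are Drosophila melanogaster genes that carry a systematic CG number and no given name. They were chosen by their very high counts in the control testis libraries, so their control levels are a description and carry no test. They are 6 of the 529 gene entries counted (1082 poly(A) sites, 522 gene symbols), and all 6 passed the filter on low counts (a mean of 10 or more in the 18 libraries). In the control libraries they held ranks 1 to 5 and 8 by level. Just inside the choice, CG32161 had 17801 ± 762 CPM (the gene's share of all counts in a library on a fixed scale, SD, n = 2). Just outside it among entries named by a CG number were CG31523 with 18850 CPM, CG14269 with 17936 CPM, CG4502 with 15512 CPM, CG12992 with 13250 CPM, CG2277 with 12464 CPM and CG14721 with 10345 CPM. The first and second of those lay above CG32161, so the choice did not follow level alone. The median entry had 552 CPM.

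The libraries were made from testes by 3′-end sequencing (Lexogen QuantSeq forward), which reads the last part of polyadenylated RNA, in 9 groups of 2 libraries with roughly 150 pairs of testes each. The control group carried the bamGal4 driver, which is active in the germ cells just before and as they become spermatocytes, without a knockdown. In each of the other 8 groups the same driver was used to knock down 1 of 7 factors in spermatocytes: CPSF6 (CPSF6_KD), CstF50 (CstF50_KD), CstF64 (CstF64_KD), su(f) (suf_KD), cbc (cbc_KD, RNAi stock BL 77426), PABP2 (PABP2_KD) and PCF11. PCF11 was knocked down with 2 RNAi lines, labelled VDRC (PCF11_KD) and NIG (PCF11_NIG_KD). All crosses stood at 25 °C for 3 days, and the progeny were then kept at 29 °C. Each group is a whole-testis sample, and each knockdown other than that of PCF11 rests on 1 line.

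A messenger RNA ends where the nascent transcript is cut and given a poly(A) tail. The cleavage stimulation factor, made up of CstF50, CstF64 and su(f), binds the RNA downstream of the cut. PCF11 and cbc, the fly homolog of Clp1, form cleavage factor II, which links cutting to the end of transcription. PABP2 coats the new poly(A) tail in the nucleus, and CPSF6 is a subunit of cleavage factor I. Where a gene has 2 sites, use of the upstream (proximal) site gives a shorter RNA than use of the downstream (distal) site, and spermatocytes are known for shortened 3′ ends.

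Library totals ran from 342763 to 819286 counts. The 2 libraries of a group differed by more than sampling noise in every group (chi-square per degree of freedom between 4.53 in CstF64_KD and 92.4 in PABP2_KD), so none was treated as a repeat deposit. The labels do not say whether the 2 libraries of a group came from separate crosses, so each SD, SE and p-value measures the spread between these libraries, which may be technical. None of the 7 targeted factors was among the entries, so the depth of each knockdown was not measured. Of the marker lists, 3 of 9 spermatid genes (m-cup, r-cup, nes) and 2 of 16 genes listed for spermatocytes (simj, twe) were measured. Also measured were 2 of 6 early germ cell genes (Rbp9, chinmo) and 1 of 5 somatic cyst and hub cell genes (zfh1), and 0 of 4 accessory gland genes. Whether any of them marks only its listed cell type was not tested. The S-numbers in the column names are the same in control and PABP2_KD, in CPSF6_KD and PCF11_KD, in CstF50_KD and suf_KD, and in CstF64_KD and PCF11_NIG_KD, and those of cbc_KD occur in no other group. What these numbers stand for is not given in the sources used here, and no sequencing batch was assigned from them.

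The 6 genes are short, and 5 of them sit inside another gene. Their median transcript was 984.5 nt, against 3380 nt over all 529 entries, and their median coding sequence 613.5 nt against 1842 nt. CG31697 (chromosome 2L, 19535448 to 19536104, plus strand) lies within CG33116, CG32161 (3L, 16846227 to 16847000, plus strand) within Zcchc7, CG33293 (3R, 5240014 to 5240735, minus strand) within CtsF, which encodes a cathepsin, CG3982 (3L, 9415755 to 9417388, minus strand) within Atat, which encodes a tubulin acetyltransferase, and CG43675 (3R, 9355495 to 9359189, plus strand) within drn. Positions are those of BDGP6, and in each case the enclosing gene runs on the same strand. Such nesting held for 27 of all 529 entries (5.10%), the 5 included. CG4686 (3R, 19864496 to 19866869, plus strand) is not nested and overlaps Mrp5, an ABC transporter gene, on the opposite strand.

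Each of the 6 genes had 2 counted sites, a median of 384 nt apart (415 nt over all entries). In CG31697, CG32161, CG33293 and CG3982 the proximal site fell within 6 nt of the annotated gene end, as it did in 11 of all entries (2.08%). Their distal site lay 356, 371, 478 and 398 nt past that end. For CG31697, CG32161, CG33293 and CG43675 the distal site fell in a coding exon of the enclosing gene, which held for 7 of all entries (1.32%), and for CG3982 in an intron of Atat. The proximal sites of the 5 nested genes all fell in introns of the enclosing gene. In CG43675 both sites lay upstream of the annotated gene end, at -1503 and -1054 nt from it. Its proximal site fell in an annotated intron of CG43675 itself and its distal site in its 3′ UTR. In CG4686 both lay in its 3′ UTR, at -214 and -3 nt from the end. A distal count in the nested genes cannot be assigned to the small gene or to the enclosing one, because counting followed position only.

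**Figure D1:**
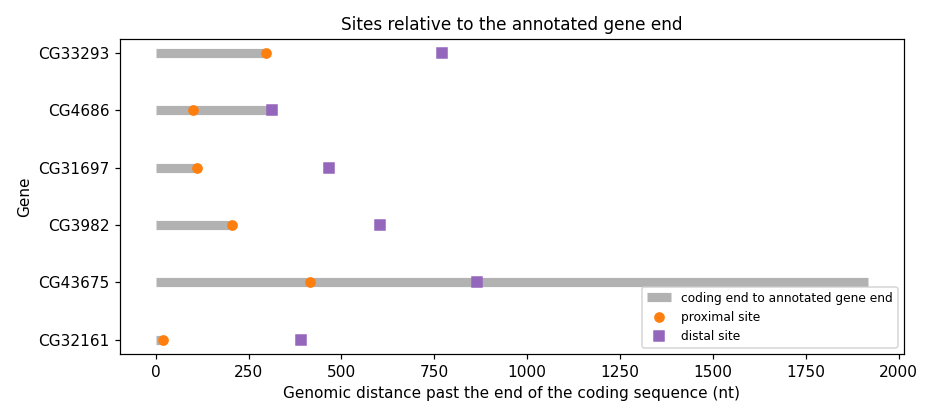
Position of the proximal site (circle) and the distal site (square) of each gene in nt past the end of the coding sequence, with the stretch to the annotated gene end as a bar. In 4 genes the proximal site coincides with the gene end and the distal site lies 356 to 478 nt beyond it.

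The knockdowns split the 6 genes by site use. In suf_KD and CstF64_KD all 6 moved toward the distal site, in CPSF6_KD and CstF50_KD CG3982, CG43675 and CG32161 moved toward the proximal site, and CG4686 moved toward the distal site in all 8 knockdowns. Site use was tested as the log2 odds of proximal against distal counts in edgeR's quasi-likelihood test, with Benjamini-Hochberg adjustment over the 525 entries tested and a threshold of 0.05. The odds set the sites of one library against each other, so a level shared by both sites cancels. If distal counts of a nested gene came from the enclosing gene, the levels of the 2 genes would not cancel. A move toward a site means a change of these odds and need not be a rise of counts at that site. In suf_KD 6 of the 6 genes moved toward distal, against 26.1% of all entries, and in CstF64_KD 6 of 6, against 17.7%. In cbc_KD 4 of 6 moved toward distal, against 60.6% of all entries, and in PCF11_KD 4 of 6, against 43.8%. In PABP2_KD 2 moved toward distal (37.3% of all) and 2 toward proximal (21.7% of all). In PCF11_NIG_KD 1 moved toward distal (33.9% of all) and 2 toward proximal (12.4% of all). In CPSF6_KD 1 moved toward distal (14.7% of all) and 4 toward proximal (24.2% of all), and in CstF50_KD 1 moved toward distal (6.86% of all) and 3 toward proximal (33.9% of all). The median log2 odds change of the 6 was -3.21 in suf_KD, where that of all entries was -0.23, and -2.26 in CstF64_KD, where that of all entries was 0.24. In cbc_KD the median of the 6 was -2.05 and that of all entries -1.76, while in percentage points of proximal share the medians were -3.64 and -16.2.

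**Figure D2:**
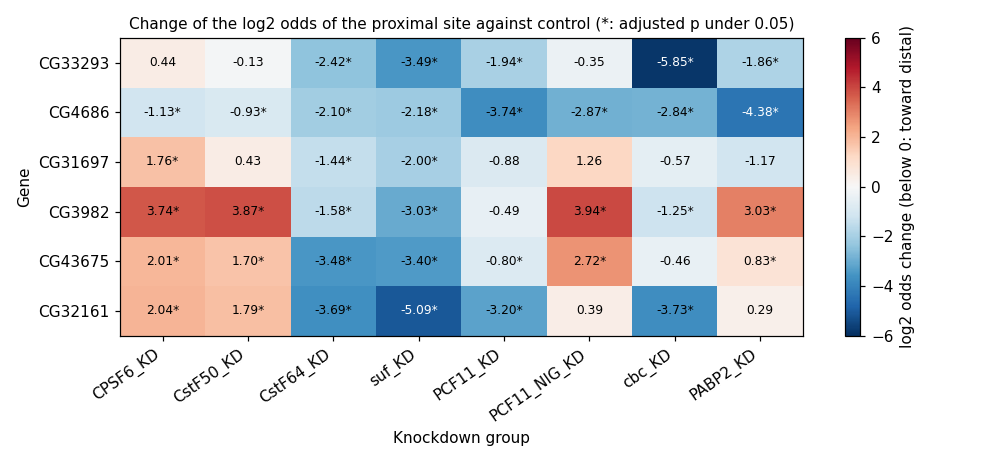
Change of the log2 odds of the proximal site against control for each gene (rows) in each knockdown (columns), with an asterisk where the adjusted p was under 0.05. The suf_KD and CstF64_KD columns are below 0 in all 6 rows, and the CG4686 row is below 0 in all 8 columns.

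The site with most of the counts changed in CG43675. In the control libraries 88.8% and 88.1% of its counts were at the proximal site, in CstF64_KD 39.4% and 42.0%, and in suf_KD 40.3% and 43.6%. The knockdown libraries of both groups lay far below both controls, and the distal site held most counts. In CstF64_KD the proximal site had 2080 and 1833 CPM, against 18043 and 18193 in control. Its distal site had 3194 and 2536 CPM there, against 2287 and 2460, so the fall at the proximal site was the larger change. The log2 odds fell by 3.48 ± 0.24 (SE) in CstF64_KD (edgeR adjusted p = 1.27e-07) and by 3.40 ± 0.24 in suf_KD (edgeR adjusted p = 9.37e-08). In CPSF6_KD the proximal share was 96.9% in both libraries, in CstF50_KD 95.5% and 96.7%, and in PCF11_NIG_KD 97.7% and 98.3%, all above the controls. The odds rose by 2.01 ± 0.24 in CPSF6_KD, 1.70 ± 0.24 in CstF50_KD and 2.72 ± 0.24 in PCF11_NIG_KD (edgeR adjusted p = 4.32e-05, 0.000202 and 1.31e-06). So the knockdowns of CstF64 and su(f) and that of CstF50, the other subunit of the same complex, stood on opposite sides of control for this gene. In PCF11_KD, with 79.1% and 83.6%, the odds fell by 0.80 ± 0.23 (edgeR adjusted p = 0.0117), a call lost without control replicate 1 (adjusted p = 0.0602) or PCF11_KD replicate 1 (adjusted p = 0.115). In PABP2_KD, with 91.7% and 94.4%, they rose by 0.83 ± 0.24 (edgeR adjusted p = 0.00889), lost without control replicate 2 (adjusted p = 0.0512), without PABP2_KD replicate 2 (adjusted p = 0.0722) or with only the 4 libraries compared (adjusted p = 0.0901). In cbc_KD the shares were 83.4% and 86.1%, and the change of -0.46 ± 0.23 did not pass (edgeR adjusted p = 0.104; 0.0336 with the replicate number as a block and 0.0381 with only the 4 libraries).

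**Figure D3:**
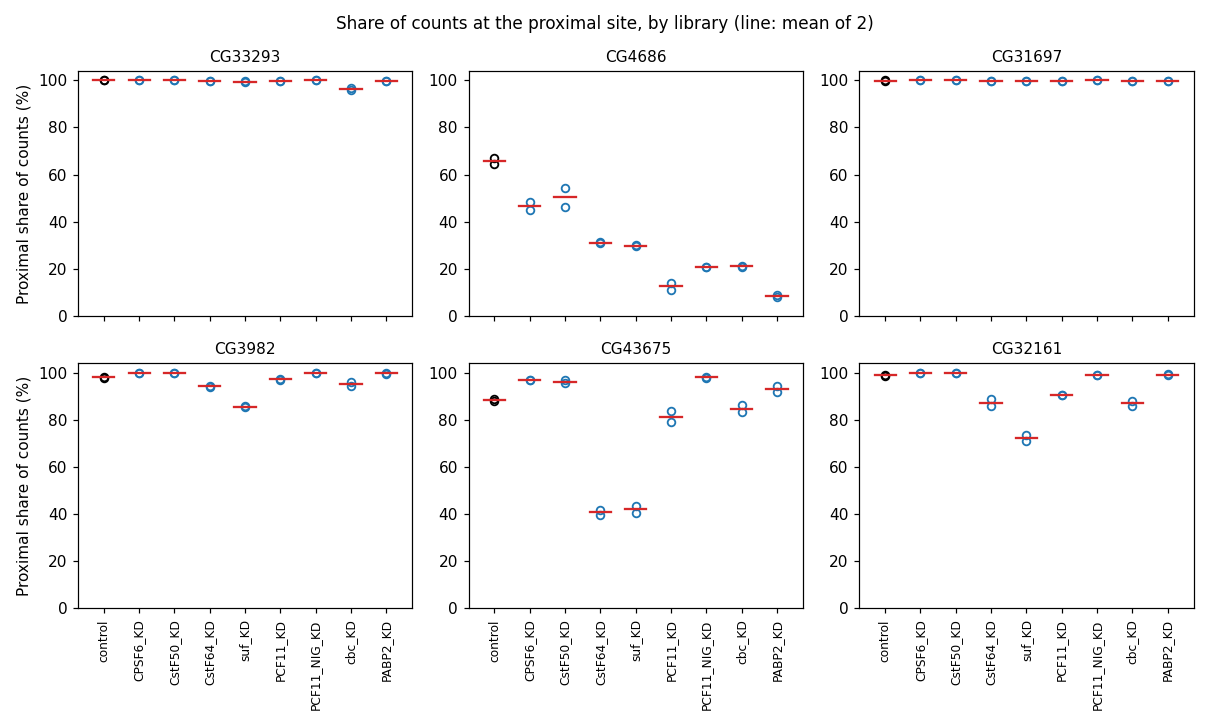
Percent of each gene's counts at its proximal site in each library (circles, control in black) with the mean of the 2 libraries of a group (red line). CG43675 lies between 39.4% and 43.6% in CstF64_KD and suf_KD, and CG4686 lies below control in every knockdown.

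CG32161 had a low distal share in control and a higher one in 4 knockdowns. The distal site held 0.973% and 1.28% of its control counts, 29.2% and 26.5% in suf_KD, 14.3% and 11.3% in CstF64_KD, 14.2% and 11.9% in cbc_KD and 9.36% and 9.51% in PCF11_KD. All 8 of these libraries lay above both controls in distal share. In cbc_KD the mean distal level itself was 159 CPM, against 201 CPM in control. The log2 odds of the proximal site fell by 5.09 ± 0.21, 3.69 ± 0.20, 3.73 ± 0.21 and 3.20 ± 0.20 in that order (edgeR adjusted p = 1.56e-09, 2.69e-08, 3.28e-09 and 2.12e-08). In CPSF6_KD the distal share was 0.236% and 0.315%, and in CstF50_KD 0.350% and 0.299%. There the odds rose by 2.04 ± 0.26 and 1.79 ± 0.24 (edgeR adjusted p = 6.41e-05 and 0.00015). In PABP2_KD and PCF11_NIG_KD the changes of 0.29 ± 0.24 and 0.39 ± 0.22 did not pass (edgeR adjusted p = 0.384 and 0.152).

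CG3982 moved toward its distal site in suf_KD, CstF64_KD and cbc_KD and toward its proximal site in 4 other knockdowns. Its distal site held 1.90% and 2.16% of the control counts, 14.5% and 14.3% in suf_KD and 6.08% and 5.60% in CstF64_KD, where the odds of the proximal site fell by 3.03 ± 0.37 and 1.58 ± 0.36 (edgeR adjusted p = 1.87e-05 and 0.00398). In cbc_KD the distal share was 5.57% and 3.94%, and the odds fell by 1.25 ± 0.36 (edgeR adjusted p = 0.00782), a call lost without cbc_KD replicate 1 (adjusted p = 0.0677). In those 4 other groups the distal site was nearly unused. It held 0.153% and 0.155% in CPSF6_KD, 0.192% and 0.0949% in CstF50_KD, 0.136% and 0.132% in PCF11_NIG_KD and 0.145% and 0.423% in PABP2_KD. The odds rose there by 3.74 ± 0.42, 3.87 ± 0.41, 3.94 ± 0.40 and 3.03 ± 0.39 (edgeR adjusted p = 2.68e-05, 3.79e-05, 4.01e-06 and 2.36e-05). PCF11_KD, with 2.53% and 3.16%, did not pass in the main test (log2 odds -0.49 ± 0.36, edgeR adjusted p = 0.269) and did with only the 4 libraries compared (adjusted p = 0.0217).

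CG33293, the highest entry in the control libraries, kept over 96% of its counts at the proximal site in every library. Its distal site held 12 and 9 counts in the control libraries, 185 and 175 in cbc_KD and 139 and 69 in suf_KD. That is a distal share of 0.0735% and 0.0574% in control, 3.35% and 3.96% in cbc_KD and 0.947% and 0.545% in suf_KD. The odds of the proximal site fell by 5.85 ± 0.38 in cbc_KD and fell by 3.49 ± 0.40 in suf_KD (edgeR adjusted p = 1.25e-08 and 1.14e-05). They also fell in CstF64_KD by 2.42 ± 0.41, in PCF11_KD by 1.94 ± 0.41 and in PABP2_KD by 1.86 ± 0.41 (edgeR adjusted p = 0.000451, 0.00155 and 0.00167), at distal shares of at most 0.389%. The other 3 knockdowns did not pass, with log2 odds changes of 0.44, -0.13 and -0.35.

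CG31697 stayed nearly all at the proximal site in every library, with 2 to 18 distal counts per library. The distal site held 16 and 6 counts in the control libraries (0.186% and 0.0728%), 15 and 13 in suf_KD (0.507% and 0.521%) and 18 and 15 in CstF64_KD (0.348% and 0.350%). Its mean distal level was 26.0 CPM in suf_KD and 36.4 CPM in CstF64_KD, against 31.5 ± 18.7 CPM (SD) in control. The mean proximal level was 5043 and 10391 CPM in these groups, against 24564 CPM in control. The odds of the proximal site fell by 2.00 ± 0.42 in suf_KD (edgeR adjusted p = 0.00204) and by 1.44 ± 0.41 in CstF64_KD (edgeR adjusted p = 0.0144). In CPSF6_KD, with 2 and 3 distal counts, they rose by 1.76 ± 0.59 (edgeR adjusted p = 0.0318). The CPSF6_KD call was lost with DESeq2 (adjusted p = 0.112), with only the 4 libraries (adjusted p = 0.0939), and without control replicate 1 (adjusted p = 0.46), CPSF6_KD replicate 1 (adjusted p = 0.188) or replicate 2 (adjusted p = 0.0669). The CstF64_KD call was lost with DESeq2 (adjusted p = 0.065) and without control replicate 2 (adjusted p = 0.113), CstF64_KD replicate 1 (adjusted p = 0.074) or replicate 2 (adjusted p = 0.0539), and without control replicate 1 its log2 value was -2.26. Calls absent from the main test appeared in PABP2_KD and PCF11_KD without control replicate 1 (adjusted p = 0.0116 and 0.0168) and in PCF11_NIG_KD without control replicate 2 (adjusted p = 0.0132) or PCF11_NIG_KD replicate 2 (adjusted p = 0.013).

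CG4686 differed from the other 5 genes in its site use and in the order of the knockdowns. In control 67.2% and 64.4% of its counts were at the proximal site. The shares were 8.11% and 8.84% in PABP2_KD, 14.1% and 11.2% in PCF11_KD, 20.9% and 20.7% in PCF11_NIG_KD, 21.3% and 21.0% in cbc_KD, 30.1% and 29.5% in suf_KD and 30.8% and 31.3% in CstF64_KD. In CPSF6_KD, with 48.5% and 45.1%, and in CstF50_KD, with 54.2% and 46.3%, the libraries also lay below both controls. The log2 odds fell by 4.38 ± 0.17 in PABP2_KD (edgeR adjusted p = 5.4e-10), by 3.74 ± 0.17 in PCF11_KD (adjusted p = 1.01e-09), and by 0.93 ± 0.17 in CstF50_KD (adjusted p = 0.00103), the smallest of the 8. PABP2_KD gave CG4686 its largest change and moved CG3982 and CG43675 toward the proximal site. The block of the CG4686 distal site (19866836 to 19866866) shares 9 nt with the block of a site of Mrp5 on the opposite strand (19866857 to 19866887), taking block limits as the files give them without a stated counting base, and counting was unstranded. With all counts of that Mrp5 block taken off, an alternative chosen after seeing the data, the proximal share moved by at most 0.943 points in any group.

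Set against the mean of the other 7 knockdowns, a contrast that uses no control library, suf_KD moved 5 of the 6 genes toward distal (11.8% of all entries) and CG4686 toward proximal (14.9% of all). CstF64_KD moved 4 toward distal (4.95% of all entries) and CG4686 toward proximal (33.9% of all). The CstF64_KD count was 3 without either of its libraries, with CG4686 (adjusted p = 0.0738 and 0.0842) and CG31697 (0.0749 and 0.0629) lost. In suf_KD the log2 odds changes were -4.63 ± 0.30 for CG3982 (edgeR adjusted p = 1.3e-07) and -4.21 ± 0.16 for CG32161 (edgeR adjusted p = 6.95e-10). CPSF6_KD moved all 6 toward proximal (49.0% of all entries) and CstF50_KD 5 of 6 (60.0% of all entries). PCF11_NIG_KD moved 5 toward proximal, against 7.43% of all entries, and CG4686 toward distal (16.4% of all), while PCF11_KD moved 4 toward distal, against 41.5% of all entries. PABP2_KD moved 3 toward proximal (21.0% of all) and CG4686 toward distal (28.6% of all), where its log2 odds fell by 2.12 ± 0.13 (edgeR adjusted p = 8.25e-08). cbc_KD moved 4 toward distal, against 73.1% of all entries. The CG4686 calls in cbc_KD, PCF11_NIG_KD, suf_KD and CstF64_KD were small (log2 odds between -0.40 and 0.49) and were lost without either library of the group. The CG31697 call in PCF11_NIG_KD was lost without PCF11_NIG_KD replicate 1 (adjusted p = 0.147; log2 odds 3.02 against 1.82 without replicate 2), and the CG43675 call in PCF11_KD without PCF11_KD replicate 1 (adjusted p = 0.0972). In cbc_KD CG43675 changed by -0.40 ± 0.18 and did not pass (edgeR adjusted p = 0.059; 0.0156 with the replicate number as a block).

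The 2 RNAi lines against PCF11 differed in all 6 genes. In PCF11_NIG_KD each gene stood further toward the proximal site than in PCF11_KD, in 6 of 6 genes against 19.2% of all entries toward proximal. The difference in log2 odds was 4.44 ± 0.40 for CG3982 (edgeR adjusted p = 9.25e-06), 3.59 ± 0.21 for CG32161 (adjusted p = 1.5e-07) and 3.51 ± 0.24 for CG43675 (adjusted p = 6.57e-07). It was 2.14 ± 0.51 for CG31697, 1.60 ± 0.35 for CG33293 and 0.87 ± 0.17 for CG4686 (edgeR adjusted p = 0.00731, 0.00519 and 0.00192). The median difference was 2.83 over the 6 and 0.35 over all entries. For CG43675 the lines lay on opposite sides of control, and for CG4686 both lay below it. The calls for CG33293 and CG31697 were lost without PCF11_NIG_KD replicate 1 (adjusted p = 0.0644 and 0.0711) or PCF11_KD replicate 1 (adjusted p = 0.0531 and 0.0657), and without PCF11_NIG_KD replicate 2 the CG31697 difference was 3.34.

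The summed level of both sites is given as CPM scaled by TMM factors. Because control totals chose the genes, levels against control are described with no test. Each 3′-end read stands for the end of an RNA, so values were not divided by gene length. In control CG33293 had 45679 and 47843 CPM, CG4686 26978 and 24434, CG31697 24036 and 25155, CG3982 24730 and 21492, CG43675 20330 and 20653 and CG32161 17262 and 18339 CPM. Together the 6 genes took 15.3% and 15.1% of the control counts and between 7.64% (cbc_KD replicate 2) and 15.7% (CPSF6_KD replicate 1) elsewhere. Control had the highest group mean for CG31697, CG32161 and CG43675, although CstF50_KD replicate 1 lay above both controls for CG43675. For CG3982 only cbc_KD had a lower mean than control, with a log2 ratio of -0.19 that turned to 0.14 without TMM factors. For CG4686 in cbc_KD that ratio was -0.02, and 0.31 without them. In whole testes, fewer cells of a type and less RNA per cell cannot be told apart.

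**Figure D4:**
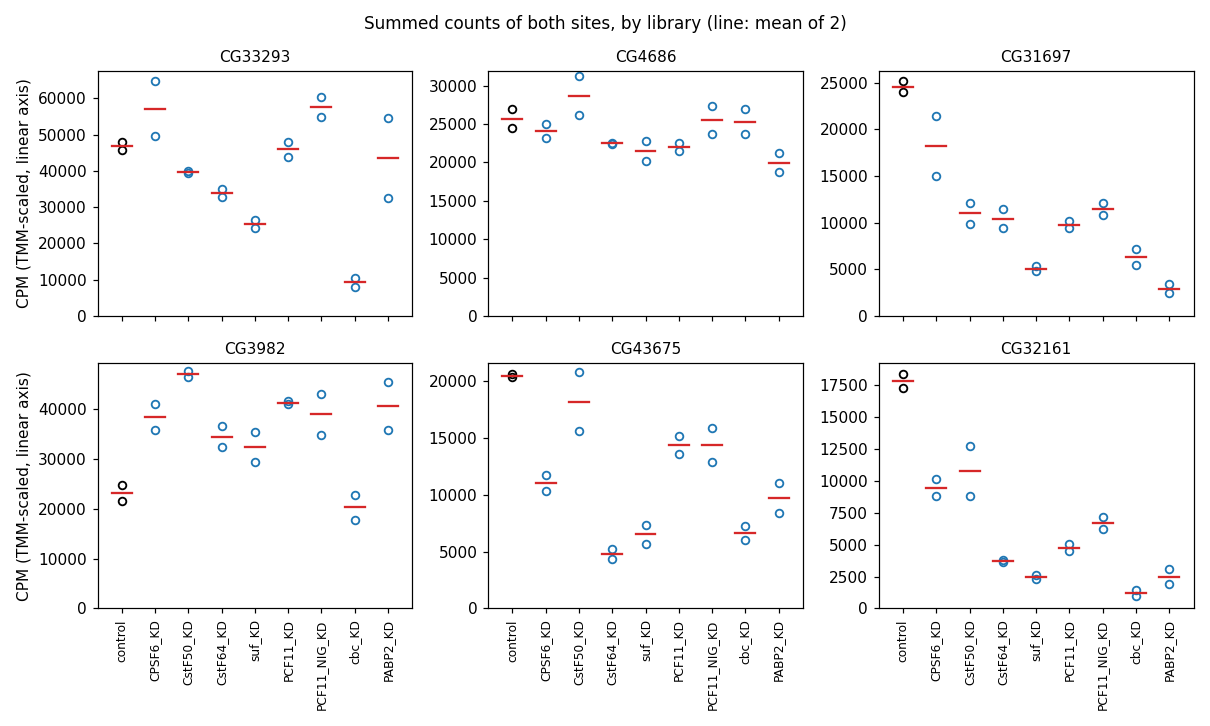
Summed CPM of both sites of each gene in each library (circles, control in black) with the mean of the 2 libraries of a group (red line). CG32161 is highest in control and lowest in cbc_KD, and the CG3982 means lie above control in 7 knockdowns, with cbc_KD below it on this scaling and above it without TMM factors.

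CG32161 had the widest range of group means by fold, 14.9-fold between control and cbc_KD. In CPM the range of CG33293 was wider, from 9327 in cbc_KD to 57673 in PCF11_NIG_KD. CG32161 stood at 1434 and 964 CPM in cbc_KD and at 1899 and 3074 CPM in PABP2_KD. The libraries of suf_KD had 2593 and 2327 CPM, those of CstF64_KD 3653 and 3805 CPM, and those of PCF11_KD 4537 and 5011 CPM. For CG32161 both control libraries lay above every knockdown library. Control counts chose this gene, so that order and the 14.9-fold range are descriptions without a test. Against the mean of the other 7 knockdowns, its total was lower in cbc_KD by a log2 change of -2.05 ± 0.21 (SE, edgeR adjusted p = 8.38e-07) and higher in CstF50_KD and CPSF6_KD by 1.57 ± 0.15 and 1.35 ± 0.15 (edgeR adjusted p = 1.85e-06 and 9.48e-06). CG33293 was low in cbc_KD, with 10593 and 8060 CPM, and in suf_KD, with 26460 and 24354 CPM. Its log2 change in cbc_KD against the other knockdowns was -2.17 ± 0.19 (edgeR adjusted p = 2.3e-07). CG31697 was lowest in PABP2_KD, with 2420 and 3486 CPM, and its log2 change there was -1.70 ± 0.18 (edgeR adjusted p = 4.2e-06). In CPSF6_KD it had 21455 and 15000 CPM, and the log2 change was 1.30 ± 0.14 (edgeR adjusted p = 6.49e-06).

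CG43675 was lowest in CstF64_KD, with 5274 and 4369 CPM, a log2 change of -1.17 ± 0.16 against the other knockdowns (edgeR adjusted p = 8.99e-05). It was highest among knockdowns in CstF50_KD, with 20765 and 15603 CPM and a log2 change of 1.02 ± 0.13 (edgeR adjusted p = 2.22e-05). CG3982 had group means of 32301 to 46985 CPM in 7 knockdowns, above both controls, and 20222 CPM in cbc_KD, where its log2 change against the others was -0.94 ± 0.14 (edgeR adjusted p = 4.99e-05). CG4686 varied least, with group means between 19935 and 28699 CPM, although its site use changed in all 8 knockdowns.

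By count, cbc_KD lowered 5 of the 6 totals against the other knockdowns (29.7% of all entries were lower), and suf_KD lowered 4 (13.5% of all). PABP2_KD lowered 3 (24.6% of all) and CstF64_KD lowered 1 (14.9% of all). CstF50_KD raised 5 (24.0% of all), PCF11_NIG_KD raised 4 (13.3% of all), CPSF6_KD raised 3 (24.0% of all) and PCF11_KD raised 2 (15.2% of all). Of all entries called against the other knockdowns, 54.0% were higher in cbc_KD and 71.4% without TMM factors. Those shares were 50.8% and 37.8% in CstF50_KD, 53.4% and 41.4% in CPSF6_KD, 45.8% and 32.9% in PCF11_NIG_KD and 49.7% and 38.4% in PCF11_KD. Among the 6 genes in cbc_KD, without TMM factors CG31697 was no longer called (log2 change -0.14, adjusted p = 0.358), CG43675 moved from -0.64 to -0.33, and CG4686 was called higher (0.42, adjusted p = 0.000734), so 4 were lower and 1 higher. The CG4686 call in PABP2_KD (adjusted p = 0.0473) was lost with DESeq2 (0.0672), with its size factors in edgeR (0.0894), without TMM factors (0.0702) and without PABP2_KD replicate 2 (0.27). There CG33293, not called in the main test (adjusted p = 0.0511), was called higher with DESeq2 (0.0385), without TMM factors (0.0142) and without PABP2_KD replicate 1 (0.000819). Without suf_KD replicate 2 the suf_KD count was 0, without cbc_KD replicate 2 the cbc_KD count was 3, and without CstF50_KD replicate 1 the CstF50_KD count was 2. Without PCF11_NIG_KD replicate 1 that count was 1, and the PCF11_KD count was 1 or 0 without its replicate 1 or 2. The summed CPM of simj and twe was 1276 and 1459 in control and between 2177 and 3130 in the libraries of cbc_KD, CstF64_KD, suf_KD, PCF11_KD and PABP2_KD. In those of CPSF6_KD, CstF50_KD and PCF11_NIG_KD the sum was between 1438 and 1767. That of zfh1 was 456 and 482 in control and 69.0 to 231 in the knockdown libraries. The 3 spermatid genes summed to 9548 and 10514 CPM in control and 8258 to 14398 in the knockdown libraries, and Rbp9 and chinmo to 2721 and 2893 CPM in control and 1402 to 4412 elsewhere. The part of any of these in the levels was not tested.

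The 2 sites are given apart for 4 more pairs of gene and knockdown picked after the values were seen. In suf_KD the proximal site of CG43675 had 2974 and 2487 CPM against 18043 and 18193 in control, and its distal site 4400 and 3211 CPM against 2287 and 2460. In CG3982 the distal site had 5145 and 4172 CPM in suf_KD against 470 and 464 in control, with 30233 and 25053 against 24260 and 21028 CPM at the proximal site. For CG32161 in cbc_KD the proximal site had 1230 and 849 CPM against 17094 and 18104 in control, while the distal site had 203 and 115 against 168 and 235 CPM, so the groups overlapped there. For CG4686 in PABP2_KD the proximal site had 1717 and 1653 CPM against 18124 and 15730, and the distal site 19459 and 17042 against 8854 and 8704 CPM.

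**Figure D5:**
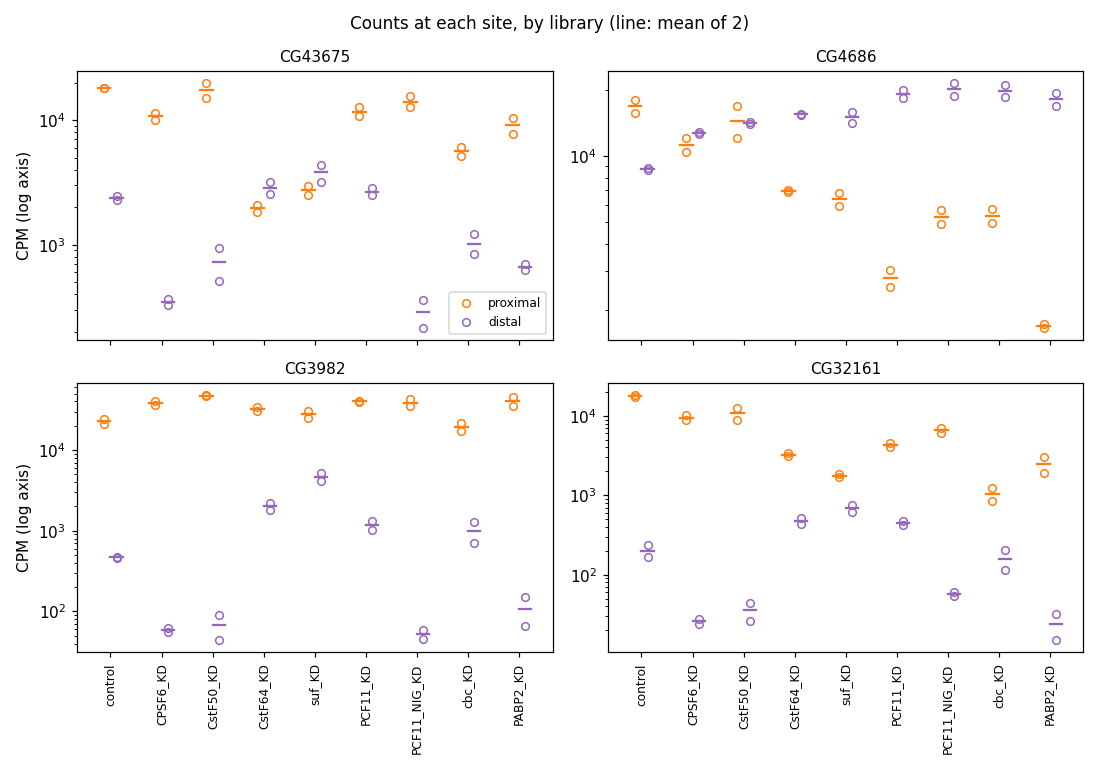
CPM at the proximal (orange) and the distal (purple) site of 4 genes in each library, on a log axis, with the mean of the 2 libraries as a line. In CG32161 the distal values of cbc_KD overlap those of control while the proximal values lie far below.

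The enclosing gene Atat has an entry of its own, with sites 9414158 and 9413594, downstream of both CG3982 sites. It was looked at after the values of CG3982 were seen. Its counts were 62 and 53 in control, 845 and 730 in suf_KD, 780 and 641 in cbc_KD and 673 and 445 in CstF64_KD, the knockdowns in which CG3982 moved toward its distal site. Its total rose by a log2 change of 3.13 ± 0.16 in suf_KD (25.3% of all entries were higher), 2.99 ± 0.16 in cbc_KD (32.6%, 171 entries against 158 lower, and 222 against 110 without TMM factors) and 2.85 ± 0.15 in CstF64_KD (24.0%), with edgeR adjusted p = 1.69e-09, 3.05e-09 and 5.98e-09. It also rose in PABP2_KD by 1.78 ± 0.15 (32.6% of all entries were higher, edgeR adjusted p = 2.89e-07), where CG3982 moved toward its proximal site. Smaller rises were those in PCF11_KD by 1.72 (23.6% of all entries were higher, edgeR adjusted p = 1.42e-06), PCF11_NIG_KD by 0.65 (20.8%, adjusted p = 0.00373) and CPSF6_KD by 0.53 (20.6%, adjusted p = 0.0179). The entry of CG33116, which encloses CG31697, did not pass in suf_KD or CstF64_KD (log2 changes of 0.04 and 0.44, edgeR adjusted p = 0.872 and 0.0804). It was lower in PABP2_KD and cbc_KD, by log2 changes of -0.85 and -0.86 (edgeR adjusted p = 0.0022 and 0.00211), as were 29.5% and 30.1% of all entries. Zcchc7, CtsF and drn, which enclose CG32161, CG33293 and CG43675, had no entry of their own, so their levels were not measured.

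Among the 426 other entries that averaged 100 counts or more, the patterns of site use most like those of the 6 genes over the 9 group means were as follows, by Pearson's r of the log2 odds. For CG3982 they were cnn (0.97), Tom40 (0.89) and CG1812 (0.86), and for CG43675 cnn (0.94), RhoGAP71E (0.81) and CG8565 (0.80). For CG32161 they were mei-218 (0.91), CG33136 (0.89) and cnn (0.89), and for CG31697 CG8565 (0.87), CG42590 (0.80) and Dnz1 (0.79). For CG33293 they were CycB3 (0.96), Taf8 (0.96) and CG2277 (0.95), and for CG4686 Mitofilin (0.96), CG14322 (0.96) and CG8617 (0.96). Between the 6 genes themselves r was 0.94 for CG32161 with CG3982, 0.92 for CG3982 with CG43675, and 0.04 for CG3982 with CG4686. All points share the same libraries.

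Among the 20 highest other entries in control, 13 of 20 moved toward distal in suf_KD and 10 of 20 in CstF64_KD, with median log2 odds changes of -2.08 and -1.34. In cbc_KD 16 of 20 did, with a median of -3.94. The authors' deposited tables of site changes listed CG43675 and CG4686 in 8 of 8 knockdowns, CG32161 in 4, CG3982 in 2, and CG33293 and CG31697 in 0. Their run settings included apa_min at 0.05. Its effect on the listing was not tested, so a gene not listed was not necessarily found unchanged. CG43675 in cbc_KD, not called in the main test here, had an adjusted p of 0.000782 in the authors' beta-binomial test. For CG43675 the score named PolyAIndex in the authors' deposited table was 1.12 in CstF64_KD and -0.15 in PCF11_NIG_KD.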

How the data were processed

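Testis 3′-end libraries (18, in 9 groups of 2) were counted by the authors with PolyA-miner, per the file headers and run logs, without strand or molecular identifiers, in blocks of 30 nt at 1098 listed sites. The deposited counts are raw and cover 529 entries. Bowtie, SAMtools, dm6 and BDGP6 are named in the submitters' processing notes, without versions. The authors' deposited result tables hold p-values of a beta-binomial test and a score (PolyAIndex). All 529 entries were matched to BDGP6 gene models by symbol, synonym and position.

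The 525 entries whose counts averaged 10 or more were fitted with edgeR 4.0.16 in R 4.3.3. Site use was tested on 36 columns (proximal and distal per library) with a coefficient per library, and totals with TMM factors. Library totals of 342763 to 819286 counts and 2 libraries per group limit the precision. CPM and totals are relative to the listed entries alone. DESeq2 1.42.0, other scalings, no filter, a replicate block and leaving out libraries were alternatives. On simulated data, the site-use test called 88 of 103 entries changed by a log2 of 2, 37 of 97 changed by 1 and 1 of 325 unchanged. The simulation gave every entry and library the same spread (dispersion 0.0316). It therefore does not give the error rate for groups whose libraries differed more, such as PABP2_KD.

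The genes and lists were chosen with earlier results of these data known. Named were all 6 genes, the next 6 CG-numbered entries by control CPM, and the 3 entries most alike in site use. Sequences were not analysed here.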

Additional observations from a re-analysis of the deposited data

Results flagged for a closer look

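All 6 genes differed between the 2 RNAi lines against PCF11, by a test of the difference itself in edgeR. In PCF11_NIG_KD against PCF11_KD the log2 odds of the proximal site were higher by 4.44 for CG3982, 3.59 for CG32161, 3.51 for CG43675, 2.14 for CG31697, 1.60 for CG33293 and 0.87 for CG4686. The level of PCF11 itself was not among the counted entries. Groups of 2 libraries could not be tested for a library far from the others.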

How the results depend on the processing

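Site use kept its direction and side of the threshold in all 102 results with no filter, in 100 of 102 with DESeq2 and in 100 of 102 with a replicate block, and CG4686 without the overlapping block kept its share in 8 of 8 knockdowns. The cause of any change given here was not tested. The labels share replicate numbers. Deviations of same-numbered libraries had correlations with control from -0.15 to 0.25 in site use and -0.23 to 0.37 in totals, both highest with PABP2_KD. Knockdowns were not set against each other in this check. No pairing was assumed, and the replicate block was an alternative. The replicate block kept every count of the 6 genes within 1.5 times and added CG43675 in cbc_KD, against control and against the others. It turned the CG43675 total in PABP2_KD against the other knockdowns, main value -0.0079, to 0.0068; DESeq2 gave 0.0042, its size factors 0.0042 and unscaled library totals 0.042.

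Unscaled totals moved the median of all entries by up to 0.33 (cbc_KD against control), gave -0.012 for CG3982 and -0.093 for CG4686 in CPSF6_KD, and 3 calls in CstF50_KD. DESeq2's size factors gave 1 call in PCF11_KD. Over all entries, the site-use count in PABP2_KD against control was 167 with only its 4 libraries and 310 in the fit of all 18. Leaving out 1 library moved 26 counts over all entries by more than 1.5 times.

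Leaving out 1 library gave these ranges. Calls against the other knockdowns were 3 to 3 in CstF64_KD for site use, and for totals 3 to 5 in cbc_KD, 2 to 4 in CstF50_KD, 1 to 3 in PCF11_NIG_KD, 0 to 1 in PCF11_KD and 0 to 3 in suf_KD. Site-use log2 odds crossed 0 for CG31697 in cbc_KD against the others (-0.61 to 0.24) and CstF50_KD against control (-0.40 to 0.96). They did for CG33293 in CstF50_KD (-0.32 to 0.091) and PCF11_NIG_KD (-0.79 to 0.19) against control, and in PABP2_KD (-0.25 to 0.50) and PCF11_KD (-0.19 to 0.22) against the others. Totals did for CG4686 in cbc_KD (-0.040 to 0.21) and CPSF6_KD (-0.026 to 0.085), CG33293 in CstF64_KD (-0.082 to 0.0060) and PABP2_KD (-0.041 to 0.70), CG3982 in CstF64_KD (-0.15 to 0.025) and CG43675 in PABP2_KD (-0.22 to 0.18). None of these values had passed the threshold with all libraries. With 1 library left in a group, its spread was assumed to be that of the others. Distal counts of CG31697 (2 to 18) limit its site use.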

Other observations

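Of the 22 other entries nested in a gene on the same strand, a list made after the 6 genes were seen, 21 were tested. In CstF64_KD 1 of 21 moved toward distal and in suf_KD 4 of 21, with median log2 odds changes of -0.04 and -0.17. In cbc_KD 10 of 21 did, with a median of -1.19, and 60.6% of all entries tested.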
